A study of Mus musculus with 14 samples.

Results

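The genes described here are 47 ribosome biogenesis and nucleolar genes of the mouse, measured by RNA-seq in 14 subcutaneous CT26 tumors. They were chosen by function (rRNA transcription, rRNA processing and modification, and pre-ribosome assembly), not by a threshold on the data, but the list was drawn up with earlier results of these tumors known, so its counts describe the list and are not independent evidence of a direction. All 47 were found among the 53801 genes of the annotation, and all 47 were among the 16287 genes that passed the filter on low counts. CT26 is a colon carcinoma line from BALB/c mice, and here the cells carried a DNA barcode library (ClonTracer) and were injected into both flanks of female Balb/c mice aged 6 to 8 weeks.

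All mice received antibody from day 7, every 3 days for 5 doses, and tumors were taken 3 days after the last dose. The 5 control IgG tumors (14L, 14R, 16R, 17R, and 20R, from 4 mice) received the isotype control clone 2A3 alone, and 9 tumors received anti-PD-1, an antibody that blocks an inhibitory receptor of T cells. Of these 9, the 5 responder tumors (24L, 26R, 30L, 30R, and 35L, from 4 mice) and the 4 non-responder tumors (29L, 32R, 33L, and 33R, from 3 mice) were told apart by the study from their size at the end of treatment against the control IgG median. Response and tumor size at harvest therefore cannot be told apart. The number in each name is the mouse and the letter the flank, no mouse had tumors in more than 1 group, and every value below lists tumors in the order just given. All tumors came from 1 barcoded line, so they are not independent lines. Of 10 colon carcinoma epithelium markers, 3 (Vil1, Cdx2, and Cldn7) were under 1 CPM (a count scaled to the library total) in every tumor, and the 10 together summed to 237 to 513 CPM.

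Libraries held 33237744 to 48481461 expected counts, the fragments that RSEM assigns to genes, and the lowest count of any of the 47 genes in any tumor was 965, so counting error was small beside the spread between tumors. Mean fragment length was 269.5 to 277.0 bases in responders, 277.5 to 287.8 in non-responders, and 268.7 to 277.7 in control IgG tumors. It was shorter in each responder than in each non-responder, so between these groups it cannot be told apart from response. The longest belonged to tumor 33R. Tumor 33R also stood apart in how its values followed gene length, and values of the 47 genes without it are given below where they differ in call or sign.

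Ribosomes are built in the nucleolus, where RNA polymerase I copies the ribosomal DNA into a long precursor RNA. Small nucleolar ribonucleoproteins (snoRNPs) of the box C/D and box H/ACA classes modify that precursor, the small subunit processome folds and cuts it, and separate sets of assembly factors carry the pre-40S and pre-60S particles through to export to the cytoplasm. The genes of this program are used by every growing cell, are known targets of MYC, and are high in most rapidly dividing tumors.

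Promoter sequences of some of the genes that differed most in these tumors are shown first. RefSeq promoters (GRCm38.p6, 250 bases before to 50 after a transcription start) were at hand for 42 of the 47. The E-box CACGTG, which MYC with MAX can bind, was present on either strand in a promoter of 8 of the 42 genes (19.0%), against 8.09% of all 27025 genes with a promoter entry and 7.15% of all 32851 promoters. The GC box GGGCGG was present in 32 of 42 genes (76.2%) against 38.2% of all genes and 35.7% of all promoters. CCGGAA, the core of ETS family sites, was present in 21 of 42 (50%) against 16.7% and 14.9%. The last motif was chosen after these promoters had been read. The 8 genes with an E-box were Ltv1, Nop2, Pes1, Tsr1, Utp18, Utp20, Utp4, and Wdr43. Below are the 100 bases before the start, 5′ to 3′ on the gene's strand, of 6 genes that were lower in responders than in non-responders and of Gar1, which was not, with every GC box, E-box, and ETS core in capitals (or its reverse complement, CCGCCC for the GC box and TTCCGG for the ETS core).
Wdr74, chr19:8735739-8735838, plus strand: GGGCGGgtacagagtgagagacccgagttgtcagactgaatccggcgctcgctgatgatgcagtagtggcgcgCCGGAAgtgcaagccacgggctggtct
Nop58, chr1:59684906-59685005, plus strand: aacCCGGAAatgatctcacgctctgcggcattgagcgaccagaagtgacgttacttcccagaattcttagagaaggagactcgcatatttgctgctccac
Nop56, chr2:130274312-130274411, plus strand: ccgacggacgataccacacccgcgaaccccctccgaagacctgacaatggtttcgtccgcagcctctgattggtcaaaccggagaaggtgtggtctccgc
Wdr75, chr1:45795066-45795165, plus strand: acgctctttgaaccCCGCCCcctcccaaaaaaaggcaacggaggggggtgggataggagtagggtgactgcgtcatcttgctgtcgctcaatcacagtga
Wdr43, chr17:71616115-71616214, plus strand: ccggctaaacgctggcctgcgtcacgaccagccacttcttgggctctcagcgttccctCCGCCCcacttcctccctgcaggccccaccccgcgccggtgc
Utp18, chr11:93885767-93885866, minus strand: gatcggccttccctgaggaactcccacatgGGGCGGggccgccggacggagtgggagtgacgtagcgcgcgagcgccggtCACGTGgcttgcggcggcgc
Gar1, chr3:129831397-129831496, minus strand: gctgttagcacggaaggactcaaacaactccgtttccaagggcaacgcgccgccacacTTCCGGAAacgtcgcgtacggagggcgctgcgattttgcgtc
The E-box of Wdr43 lies just after its start, and that of Utp18 is in the stretch above.
Wdr43, chr17:71616222-71616247, plus strand: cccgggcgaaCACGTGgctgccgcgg
Of the 10 genes lower in responders than in non-responders, 9 had a promoter entry, and in at least 1 promoter 8 of these genes held a GC box, 3 an ETS core, and 2 an E-box. Nop56 held no motif in the 100 bases shown, and the ETS cores of Gar1 overlap on opposite strands by 4 bases. A match is only the presence of these letters. The shares of all genes include genes that did not pass the filter on low counts here. Shares among the genes tested were not taken, so an excess particular to this program is not shown.

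Expression levels within the program spanned a wide range. In TPM (a level per gene length), means over the 14 tumors ran from 13.9 for Utp15 to 1653 for Npm1. The nucleolar proteins Npm1 and Ncl (392 TPM) led, followed by the box C/D core proteins Nop56 (277 TPM) and Nop58 (260 TPM). The RNA polymerase I subunit Polr1b (14.8 TPM), the export factor Rrp12 (15.0 TPM), and the processome scaffold Utp20 (16.3 TPM) were at the other end. Control IgG tumors had 1715 ± 107 TPM of Npm1 (mean ± SD, n = 5), responders 1635 ± 179 (n = 5), and non-responders 1597 ± 216 (n = 4). Together the 47 genes took 0.681% to 0.741% of all counts in control IgG tumors, against 0.562% to 0.674% in the responders, with the non-responders at 0.638% to 0.735%, so that the responders lay below every control IgG tumor and overlapped the non-responders. Summed TPM of the 47 genes, in contrast, overlapped between all groups. It was 4600 to 5567 in responders, 5385 to 5810 in control IgG tumors, and 4335 to 5823 in non-responders. In bulk tumors, fewer cells of a type and less RNA per cell cannot be told apart.

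The comparison of responders with non-responders asks which genes differ between tumors under the same antibody. Of the 47 genes, 10 were lower in responders and none were higher (edgeR quasi-likelihood test, adjusted p under 0.05 over all genes tested), where 4.82% of all genes tested were called lower. The 10 were Nop56, Nop58, Nop10, Wdr43, Wdr75, Utp18, Wdr12, Wdr74, Rrs1, and Ddx56. The median log2 fold change over the 47 was -0.18 (range -0.76 to 0.15), beside 0.01 over all genes tested, and 38 of the 47 were below 0. In 14 of the 47, the responders did not overlap the non-responders and lay below them, as did 6.04% of all genes tested. Just outside the threshold were Nhp2 (log2 fold change -0.47, edgeR adjusted p = 0.0557), Mrto4 (-0.44, 0.0586), and Rrp15 (-0.34, 0.0592). Without tumor 33R these 3 stood at -0.25, -0.24, and -0.23 (edgeR adjusted p = 0.195, 0.212, and 0.212).

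Against control IgG tumors, 7 of the 47 genes were lower in responders and none were higher, where 5.3% of all genes tested were called lower. They were Nop56, Nop58, Wdr43, Wdr75, Wdr74, Rrs1, and Ddx56. The median log2 fold change was -0.14 (range -0.72 to 0.13), beside -0.01 over all genes, and 11 of the 47 had responders wholly below control IgG tumors, as did 6.72% of all genes. Both comparisons use the same 5 responders, so that their calls are not independent of each other. Between non-responders and control IgG tumors, 0 of the 47 genes passed (lowest edgeR adjusted p = 0.931, and 0 of 47 with an unadjusted p under 0.05), and 0 of 47 passed by DESeq2 or limma-voom. There 0% of all genes tested were called by edgeR (758 had an unadjusted p under 0.05, and DESeq2 called 18). The median over the 47 genes was 0.02, and the range was -0.12 to 0.25.

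**Figure D1:**
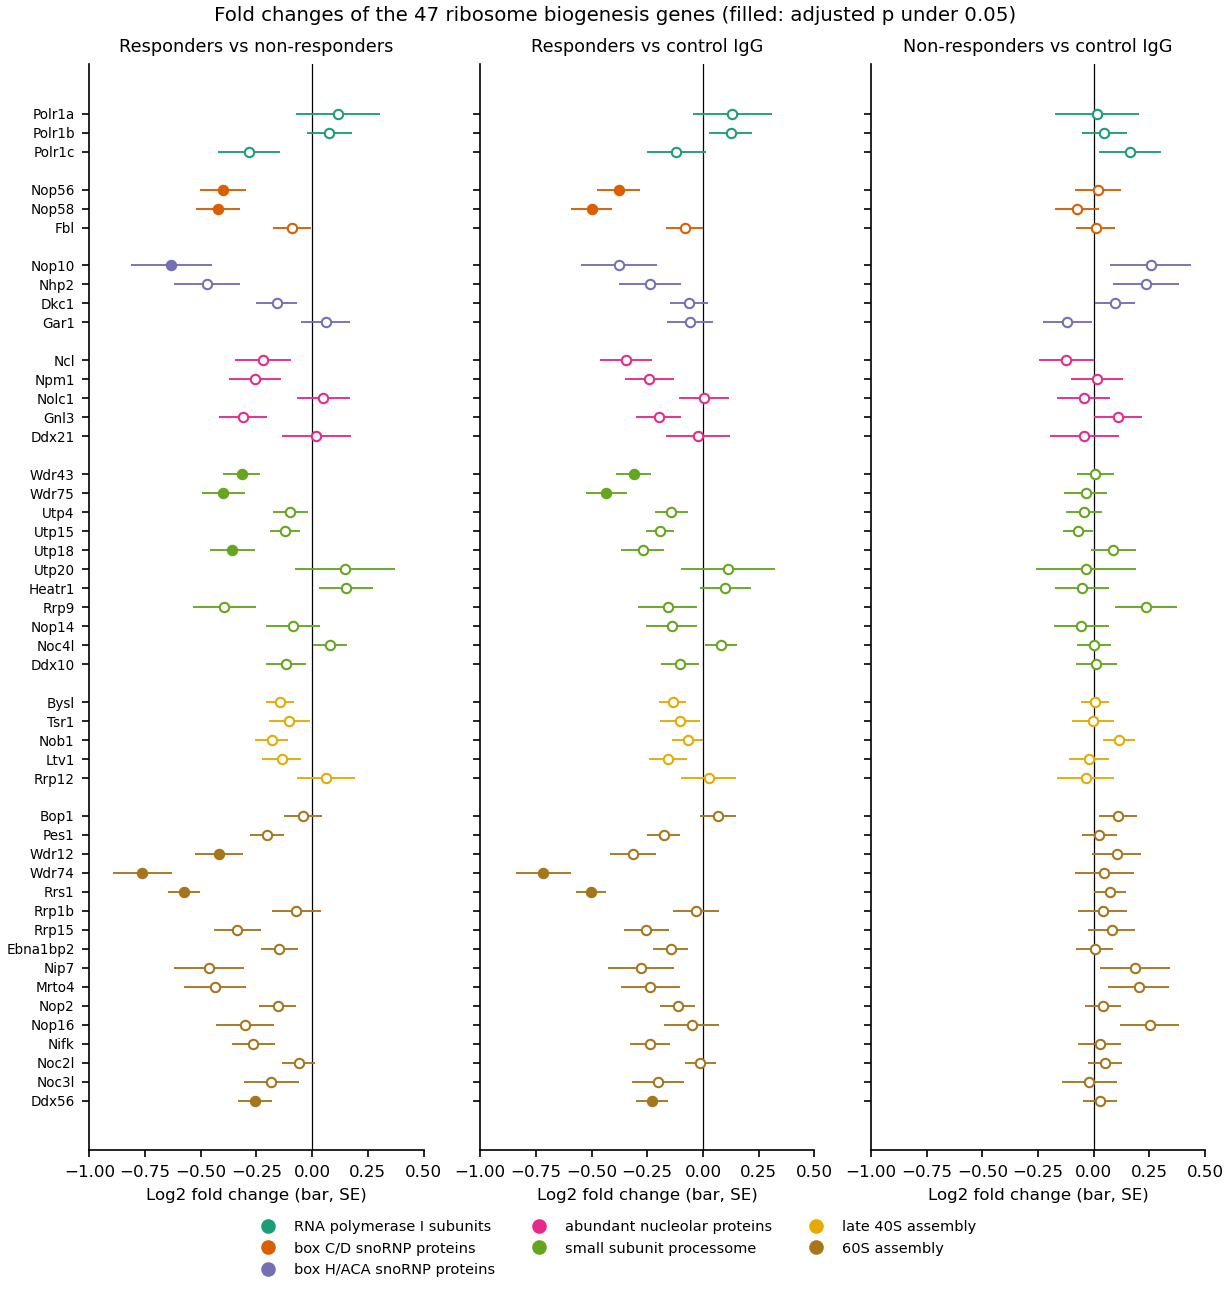
Log2 fold change (x axis, bar ± SE) of each of the 47 genes (rows, colored and ordered by role) in the 3 comparisons, filled where the edgeR adjusted p is under 0.05. In the first panel 10 genes are filled, in the second 7, and in the third none, where all values lie between -0.12 and 0.25.

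The number of calls depended on single tumors, and so did the number over all genes. Between responders and non-responders it was 3 of 47 (Nop58, Wdr74, and Rrs1) without responder 24L, without responder 30R, or without non-responder 32R, and 4 (these 3 and Ncl) without non-responder 33R. In these fits 3.52%, 4.24%, 3.73%, and 4.8% of all genes were called in either direction, against 9.9% with all tumors. With 1 tumor per mouse, or with only the 2 groups compared in the fit, it was 2, Wdr74 and Rrs1 (3.19% and 4.34% of all genes). Against control IgG tumors it was 4 without 20R or without 30R and 13 without 33R, where 7.34%, 8.58%, and 20.5% of all genes were called, against 13.2% with all tumors. The 13 were the 7 named above and Nop10, Ncl, Utp15, Utp18, Wdr12, and Nip7. Tumor 33R, a non-responder, enters this comparison only through the shared filter, scaling, and estimate of spread. Without 33R, the other 7 of the 10 genes no longer passed against non-responders. Of these, Nop56 stood at -0.28, Wdr43 at -0.29, Wdr75 at -0.37, Wdr12 at -0.32, and Ddx56 at -0.23 (edgeR adjusted p = 0.0863, 0.0755, 0.0615, 0.104, and 0.105), and Nop10 and Utp18 are described below.

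The strongest differences were in genes of the large subunit. Rrs1 encodes an assembly factor that brings the 5S RNA and its proteins into the pre-60S particle. Its levels were 73.6, 87.7, 84.8, 80.7, and 81.5 CPM in the responders, 116, 126, 126, and 118 CPM in the non-responders, and 104, 117, 123, 111, and 123 CPM in the control IgG tumors. All responders lay below all 9 other tumors, and Rrs1 was lower than in non-responders (log2 fold change -0.57 ± 0.07, edgeR adjusted p = 0.00246) and than in control IgG tumors (log2 fold change -0.50 ± 0.07, edgeR adjusted p = 0.000869). Means were 81.6 ± 5.29 CPM in responders (± SD, n = 5), 122 ± 5.58 in non-responders (n = 4), and 116 ± 7.93 in control IgG tumors (n = 5). Wdr74, a WD-repeat protein of nucleolar pre-60S particles, had the largest fold change of the 47 genes. It measured 26.9, 31.0, 32.9, 28.8, and 30.3 CPM in the responders, 39.4, 50.4, 45.4, and 68.4 CPM in the non-responders, and 47.8, 55.3, 48.5, 42.3, and 52.4 CPM in the control IgG tumors. Again no responder reached the lowest of the other tumors, and 33R was the highest of all 14. The difference was -0.76 ± 0.13 in log2 against non-responders (edgeR adjusted p = 0.0072) and -0.72 ± 0.13 against control IgG tumors (edgeR adjusted p = 0.00271). Rrs1 and Wdr74 passed in both comparisons under all 12 other ways of processing and with each of the 14 tumors left out in turn.

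Wdr12 belongs with Pes1 and Bop1 to the PeBoW complex, which is needed for maturation of the large subunit rRNAs. Wdr12 held 51.8, 73.4, 64.5, 63.7, and 69.4 CPM in the responders, 84.5, 79.5, 80.8, and 100.1 CPM in the non-responders, and 74.5, 94.9, 73.7, 75.1, and 83.1 CPM in the control IgG tumors. The highest responder, 26R, lay below every non-responder but only just below the lowest control IgG tumor, 16R, and Wdr12 passed only against non-responders (log2 fold change -0.42 ± 0.11, edgeR adjusted p = 0.0303; against control IgG, log2 fold change -0.32 ± 0.10, edgeR adjusted p = 0.0589). In the fit without 33R, Wdr12 passed against control IgG tumors (log2 fold change -0.31, edgeR adjusted p = 0.0361) but not against non-responders. Its partners were not called, with log2 fold changes against non-responders of -0.20 for Pes1 (edgeR adjusted p = 0.108) and -0.04 for Bop1 (edgeR adjusted p = 0.785). Ddx56, a nucleolar RNA helicase, read 39.5, 40.8, 41.3, 42.8, and 46.4 CPM in the responders, 46.4, 56.0, 47.7, and 51.5 CPM in the non-responders, and 45.4, 52.5, 49.1, 47.7, and 52.6 CPM in the control IgG tumors. The groups met at 46.4 CPM, where responder 35L and non-responder 29L lay together, and the small difference passed in both comparisons (log2 fold change -0.26 ± 0.08, edgeR adjusted p = 0.0458; against control IgG, log2 fold change -0.23 ± 0.07, edgeR adjusted p = 0.0483). This call was the least stable of the 10 and held in 2 of the 14 fits that left out 1 tumor.

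The other 12 large subunit factors did not pass in either comparison, but all 16 of the group had a log2 fold change below 0 against non-responders (median -0.26). Ebna1bp2, the most highly expressed of the 16 per length (122 TPM), a factor of early pre-60S particles, had 85.6, 96.5, 106, 107, and 101 CPM in the responders, 107, 112, 101, and 119.7 CPM in the non-responders, and 103, 122, 108, 103, and 114 CPM in the control IgG tumors. Its groups overlapped (log2 fold change -0.15 ± 0.08, edgeR adjusted p = 0.265). Nip7, a factor in 60S rRNA processing, was at -0.46 (edgeR adjusted p = 0.0729), and Nifk, which binds the Ki-67 protein, at -0.26 (edgeR adjusted p = 0.0925). Without 33R, Nip7 stood at -0.21 (edgeR adjusted p = 0.273). Against control IgG tumors Nip7 then passed (log2 fold change -0.27, edgeR adjusted p = 0.0462), which it did not with all tumors. Nop2, an rRNA methyltransferase, was at -0.15 and Nop16 at -0.30 (-0.11 without 33R). Rrp1b, Noc2l, and Noc3l stood at -0.07, -0.06, and -0.18.

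**Figure D2:**
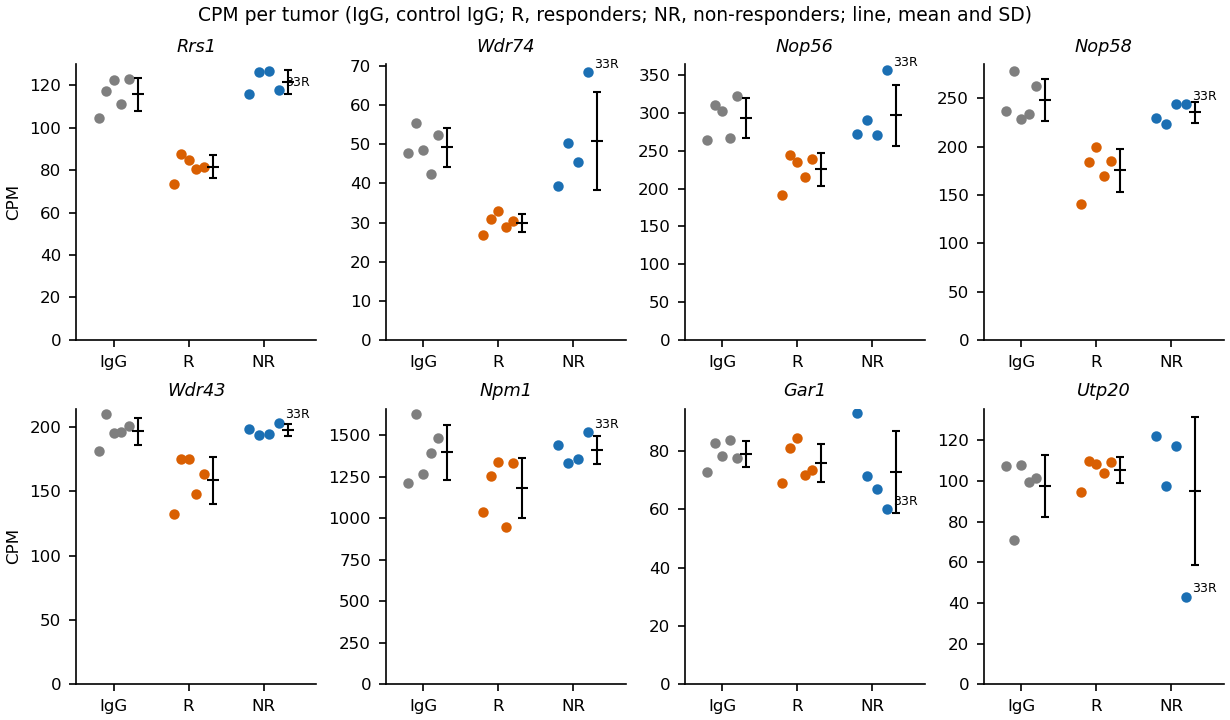
CPM (y axes, from 0) of 8 of the genes in each tumor (points) of the control IgG (IgG), responder (R), and non-responder (NR) groups, with the mean and SD of each group beside the points and tumor 33R named. Responders lie below all other tumors for Rrs1, Wdr74, Nop56, Nop58, and Wdr43, whereas the groups overlap for Npm1, Gar1, and Utp20, in which 33R is the lowest at 43.1 CPM.

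Box C/D snoRNPs carry guide RNAs that direct ribose methylation of rRNA, and 2 of their 3 core proteins here were lower in responders. Nop56 measured 192, 244, 235, 216, and 239.8 CPM in the responders, 272, 291, 271, and 356 CPM in the non-responders, and 264, 311, 302, 267, and 322 CPM in the control IgG tumors. Nop58, its paralog and partner, measured 140.2, 184, 199, 169.7, and 185 CPM in the responders, 229.8, 223, 244, and 244 CPM in the non-responders, and 237, 278, 228, 234, and 263 CPM in the control IgG tumors. For both genes each responder lay below all 9 other tumors, with the lowest value in 24L. Nop56 was lower than in non-responders (log2 fold change -0.40 ± 0.10, edgeR adjusted p = 0.0284) and than in control IgG tumors (log2 fold change -0.38 ± 0.10, edgeR adjusted p = 0.0204). Nop58 was lower to a like extent (log2 fold change -0.42 ± 0.10, edgeR adjusted p = 0.0186; against control IgG, log2 fold change -0.50 ± 0.09, edgeR adjusted p = 0.00362). Fbl, which encodes fibrillarin, the methyltransferase of the same particle, did not pass (log2 fold change -0.09 ± 0.09, edgeR adjusted p = 0.532), and its log2 fold change against control IgG tumors was -0.08.

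Box H/ACA snoRNPs guide the conversion of uridine to pseudouridine. Nop10, a small core protein of these particles, held 28.9, 36.2, 34.3, 33.6, and 36.6 CPM in the responders, 41.1, 52.4, 36.5, and 80.3 CPM in the non-responders, and 38.6, 52.3, 44.0, 40.6, and 44.8 CPM in the control IgG tumors. It was lower in responders than in non-responders (log2 fold change -0.63 ± 0.18, edgeR adjusted p = 0.0407) but did not pass against control IgG tumors (log2 fold change -0.38 ± 0.17, edgeR adjusted p = 0.165). Non-responder 33R was far above the other 13 tumors, and 33L overlapped the responders. Without 33R the log2 fold change against non-responders was -0.34 (edgeR adjusted p = 0.127). Against control IgG tumors Nop10 then passed (log2 fold change -0.37, edgeR adjusted p = 0.0273). Gar1, with an effective length of 364 bases the shortest of the 47 genes, had 69.1, 81.0, 84.5, 71.9, and 73.5 CPM in the responders, 92.9, 71.4, 67.1, and 60.03 CPM in the non-responders, and 72.8, 82.9, 78.3, 84.0, and 77.7 CPM in the control IgG tumors. Here 33R was the lowest tumor, the groups overlapped, and there was no call (log2 fold change 0.06 ± 0.11, edgeR adjusted p = 0.761, and -0.0056 without 33R; against control IgG, log2 fold change -0.06 ± 0.10, edgeR adjusted p = 0.759). Nhp2 stood at -0.47 against non-responders, and Dkc1, the pseudouridine synthase, at -0.16 (edgeR adjusted p = 0.267).

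The small subunit processome assembles on the growing precursor RNA, and 3 of its 11 members here were lower in responders than in non-responders. Wdr43, a WD-repeat protein that joins early, had 132, 175, 175, 148, and 163 CPM in the responders, 199, 193, 195, and 203 CPM in the non-responders, and 181, 210.4, 196, 196, and 200.4 CPM in the control IgG tumors. Wdr75, of the same early subcomplex, had 51.2, 65.8, 63.5, 58.1, and 67.7 CPM in the responders, 74.5, 80.3, 84.8, and 83.3 CPM in the non-responders, and 80.4, 96.1, 72.3, 78.0, and 87.0 CPM in the control IgG tumors. In both, every responder lay below every other tumor, though for Wdr43 26R and 30L reached 175 CPM, near the lowest control IgG tumor. Wdr43 was lower than in non-responders (log2 fold change -0.32 ± 0.08, edgeR adjusted p = 0.031) and control IgG tumors (log2 fold change -0.31 ± 0.08, edgeR adjusted p = 0.0197). Wdr75 was too (log2 fold change -0.40 ± 0.10, edgeR adjusted p = 0.0233; against control IgG, log2 fold change -0.43 ± 0.09, edgeR adjusted p = 0.00727).

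Utp18, of another processome subcomplex, held 41.3, 56.1, 55.1, 42.1, and 51.7 CPM in the responders, 57.3, 61.0, 62.5, and 71.6 CPM in the non-responders, and 58.4, 64.0, 56.4, 56.3, and 61.5 CPM in the control IgG tumors. The highest responders came within reach of the lowest control IgG tumors and of non-responder 29L, and the gene passed only against non-responders (log2 fold change -0.36 ± 0.10, edgeR adjusted p = 0.0406; against control IgG, log2 fold change -0.27 ± 0.10, edgeR adjusted p = 0.0802). Without 33R its log2 fold change against non-responders was -0.28 (edgeR adjusted p = 0.127). Against control IgG tumors Utp18 then passed (log2 fold change -0.27, edgeR adjusted p = 0.0476). Utp20, a large scaffold protein and with an effective length of 7213 bases the longest of the 47 genes, had 94.5, 110.0, 109, 104, and 109.5 CPM in the responders, 122, 97.3, 117, and 43.1 CPM in the non-responders, and 107, 71.0, 108, 99.4, and 101 CPM in the control IgG tumors. Its 14 values overlapped except for 2 low tumors, 33R and 14R, and it was not called (log2 fold change 0.15 ± 0.22, edgeR adjusted p = 0.708). Without 33R the sign turned, to a log2 fold change of -0.08. The U3 snoRNP protein Rrp9 stood at -0.39 (edgeR adjusted p = 0.0852), and Utp4, Utp15, Nop14, Noc4l, Heatr1, and Ddx10 lay between -0.12 and 0.15, none of them called. Against control IgG tumors Utp15 was at -0.19 (edgeR adjusted p = 0.0623). It passed there in the fit without 33R (log2 fold change -0.19, edgeR adjusted p = 0.0354).

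With all tumors, the 3 remaining groups held 0 calls in either comparison by edgeR. At an unadjusted p under 0.05 they had 2 of 5 abundant nucleolar proteins, 0 of 3 RNA polymerase I subunits, and 2 of 5 late small subunit factors against non-responders, where 27.8% of all genes had such a p. Among the abundant nucleolar proteins, Npm1, a histone and ribosome chaperone, had 1039, 1257, 1338, 946, and 1335 CPM in the responders, 1440.4, 1334, 1355, and 1518 CPM in the non-responders, and 1215, 1628, 1266, 1396, and 1487 CPM in the control IgG tumors. Responders 24L and 30R were the lowest, and the other 3 lay among the remaining tumors (log2 fold change -0.26 ± 0.12, edgeR adjusted p = 0.171; against control IgG, log2 fold change -0.24 ± 0.11, edgeR adjusted p = 0.168). Ncl, nucleolin, stood at -0.22 against non-responders and -0.34 against control IgG tumors (edgeR adjusted p = 0.264 and 0.0669). In the fit without 33R, Ncl passed in both comparisons (log2 fold change -0.34 in each, edgeR adjusted p = 0.0322 and 0.00481). Gnl3, the nucleolar GTPase nucleostemin, had 109, 147, 153, 120.1, and 139.5 CPM in the responders, 167, 154, 149, and 192 CPM in the non-responders, and 136, 167, 149.7, 154, and 159 CPM in the control IgG tumors. Its groups overlapped through 30L (log2 fold change -0.31 ± 0.11, edgeR adjusted p = 0.0798). The helicase Ddx21 and the snoRNP chaperone Nolc1 were close to 0 (0.02 and 0.05), and both signs turned without 33R (-0.13 and -0.07).

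Of the 3 RNA polymerase I subunits, the largest, Polr1a, and the next, Polr1b, had log2 fold changes of 0.12 and 0.08 against non-responders. Polr1c, which RNA polymerase III shares, had 60.7, 79.3, 70.5, 60.9, and 68.7 CPM in the responders, 73.0, 81.9, 62.4, and 114 CPM in the non-responders, and 69.6, 80.4, 74.1, 72.3, and 72.8 CPM in the control IgG tumors. The groups overlapped, and 33R was far above the rest (log2 fold change -0.28 ± 0.14, edgeR adjusted p = 0.202). Without 33R, Polr1c was at -0.07, and the signs of the other 2 turned (Polr1a -0.08, Polr1b -0.02). Of the 5 factors of late small subunit assembly, Nob1, the endonuclease that makes the final cut of the small subunit rRNA, had 65.0, 79.1, 74.5, 70.7, and 76.7 CPM in the responders, 85.6, 81.6, 75.1, and 89.9 CPM in the non-responders, and 72.9, 79.5, 77.7, 77.7, and 75.9 CPM in the control IgG tumors. Its groups overlapped too (log2 fold change -0.18 ± 0.07, edgeR adjusted p = 0.122). Bysl, Tsr1, Ltv1, and Rrp12 stood at -0.14, -0.10, -0.14, and 0.06, the last at -0.07 without 33R.

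Tumor by tumor, the median gene of the 47 deviated from its own mean over the 14 tumors by -0.31, -0.04, -0.02, -0.12, and -0.08 log2 CPM in the responders. In non-responders the medians were 0.11, 0.08, 0.06, and 0.08, and in control IgG tumors -0.04, 0.13, 0.05, 0.02, and 0.10. Responders were below non-responders in each tumor, while control IgG tumor 14L lay at the level of responder 26R. With the length trend removed, responders ranged from -0.38 to 0.03 and non-responders from -0.0016 to 0.16, and responders 26R and 30L lay among the non-responders. Responder 24L was lowest, with 2 of 47 genes above their own mean. Without 24L, the median log2 fold change over the 47 genes was -0.11 against non-responders. Non-responder 33R had the widest spread, from -1.17 to 0.95.

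**Figure D3:**
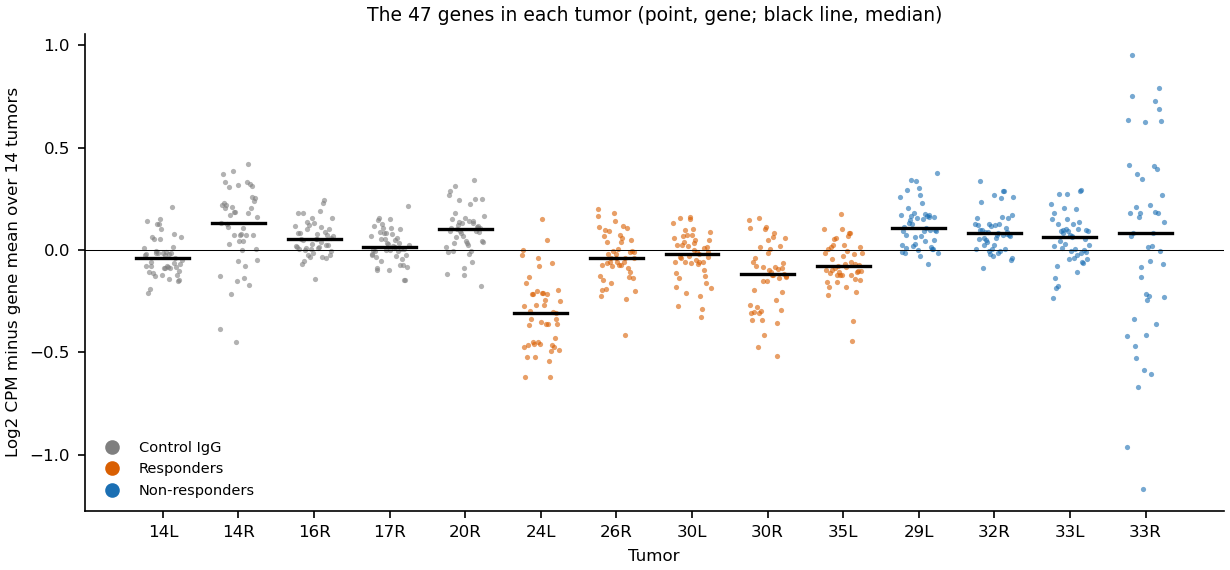
Deviation of each of the 47 genes (points) from its own mean over the 14 tumors, in log2 CPM (y axis), in each tumor (x axis), colored by group, with the median as a black line. The medians of the 5 responders lie from -0.31 (24L) to -0.02 (30L), and the points of 33R spread the most, from -1.17 to 0.95.

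Gene length moved with these differences. Across all genes tested, the log2 fold change of responders against non-responders rose by 0.10 for each doubling of effective length, and across the 47 genes by 0.13. All genes tested were split by length into 3 equal classes, with bounds at 1472 and 2792 bases. In the short class, the 17 genes of the program there had a median of -0.34, beside -0.16 for all genes. The 16 of the middle class had -0.16 beside -0.0022, and the 14 of the long class -0.09 beside 0.13. In each class the median of the 47 thus lay below that of all genes of like length. Against control IgG tumors the medians from short to long were -0.24, -0.15, and -0.07, beside -0.09, -0.01, and 0.05. There the log2 fold change rose by 0.05 for each doubling of length across all genes and by 0.09 across the 47.

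With an offset for gene length in the fit, the slope over all genes was -0.01, and the medians of the 47 were -0.25, -0.17, and -0.17 from short to long, beside -0.04, -0.02, and -0.01. Then 7 of the 47 were called against non-responders and 9 against control IgG tumors, where 4.25% and 8.06% of all genes were called lower. Without 33R alone, the slope over all genes was 0.03, and 45 of the 47 genes had a log2 fold change below 0. The 4 that passed were Nop58, Ncl, Wdr74, and Rrs1, where 1.74% of all genes were called lower. With both changes, an alternative chosen after seeing the data, 3 passed, where 4.44% of all genes were called in either direction. On the log2(TPM + 1) scale the median of all genes itself was 0.17 against non-responders, and that of the 47 genes was 0.07, a distance of -0.10 from all genes. Only 2 of the 47, Wdr74 and Rrs1, passed there, where 1.17% of all genes were called lower and 13.3% in either direction. For responders against control IgG tumors the same scale gave -0.02 for the 47 genes, -0.10 from the median of all genes. The length slope of single tumors was 0.04 to 0.06 in responders and -0.07 to 0.03 in control IgG tumors. In non-responders it ran from -0.23 (33R) to 0.04 (33L). Each responder lay above every control IgG tumor, and 33L was level with the lowest responder. Length slope and response therefore cannot be fully told apart. The part of RNA quality or library preparation in this slope was not tested.

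**Figure D4:**
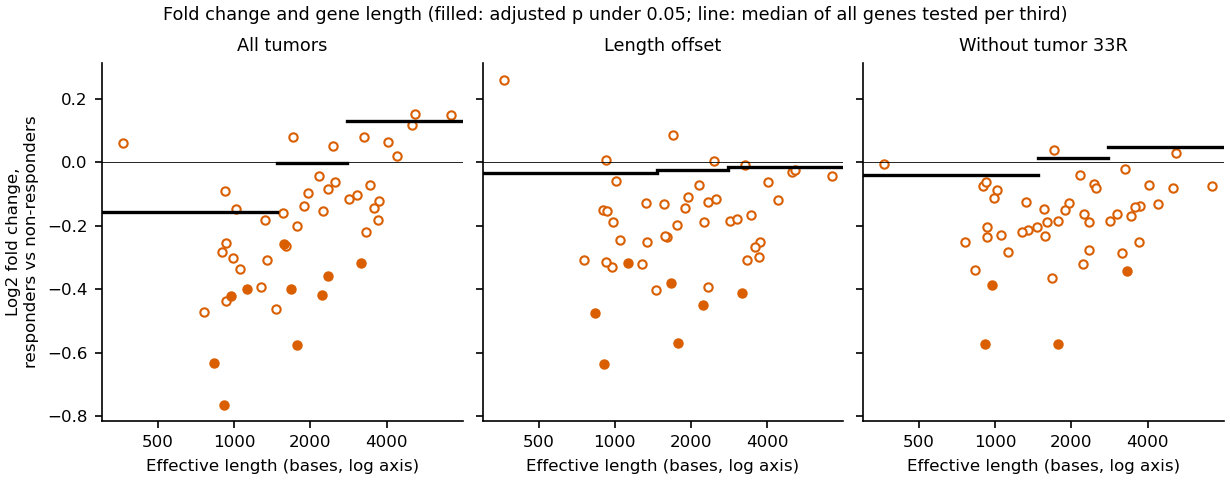
Log2 fold change of responders against non-responders (y axis) of the 47 genes (points) by effective length in bases (log x axis), in the fit of all tumors, with an offset for gene length, and without tumor 33R, filled where the edgeR adjusted p is under 0.05. Black lines are medians of all genes tested in each length class, and they run from -0.16 to 0.13 in the first panel and from -0.04 to 0.05 without 33R.

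In 3 mice, 1 per group, both flanks were sequenced. The right minus left median of the 47 genes was 0.19 log2 CPM in mouse 14 (control IgG; higher on the right in 37 of 47 genes), -0.08 in mouse 30 (responders; 9 of 47), and -0.03 in mouse 33 (non-responders; 22 of 47). With 1 mouse per group there is no test. Mouse 33 had the widest differences, from -1.44 for Utp20, the longest gene, to 1.13 for Nop10, one of the short ones. With the length trend removed, the medians were 0.22 (44 of 47 higher on the right), -0.19 (1 of 47), and -0.03 (22 of 47). In mouse 14 the difference of 0.19 was larger in size than the median log2 fold change of responders against control IgG tumors (-0.14). Before the length trend was removed, it was smaller in mice 30 and 33. A difference between single tumors and one between groups are unlike quantities, so neither measures the other.

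**Figure D5:**
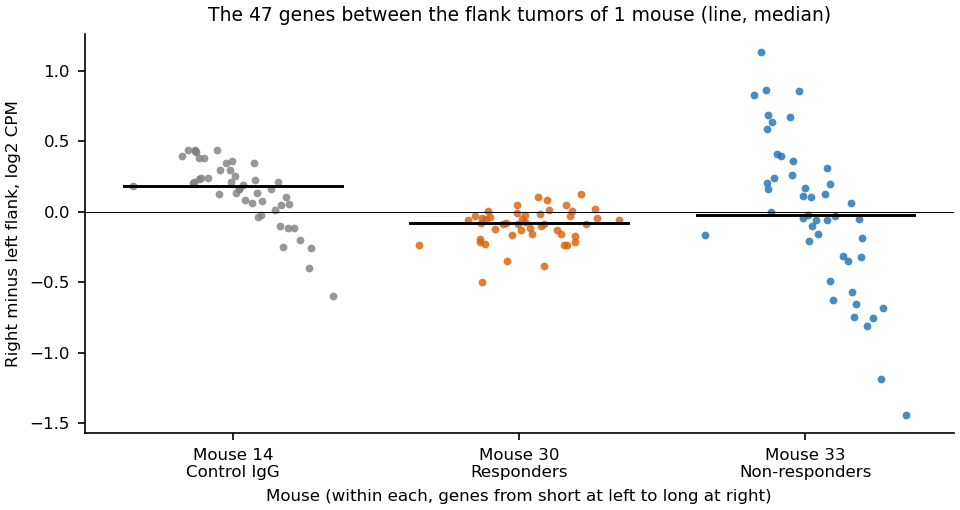
Right minus left difference in log2 CPM (y axis) of each of the 47 genes (points, ordered within each mouse from short to long) for the 3 mice with both flanks sequenced, with the median as a black line. Mouse 14 lies mostly above 0, with a median of 0.19, and in mouse 33 the differences run from 1.13 for Nop10 down to -1.44 for Utp20, the longest gene.

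A further 116 genes of the same pathway, listed by function with earlier results of these tumors known, had 18 lower and 1 higher in responders than in non-responders, and 17 lower and 1 higher than in control IgG tumors. Of all genes tested, 4.82% and 5.3% were called lower in these comparisons and 5.08% and 7.88% higher. The medians over the 116 were -0.17 and -0.14. All values of these further genes are from the fit of all tumors only. Their dependence on single tumors or on gene length, which changed the number called among the 47, was not tested. Among 45 further large subunit factors, 8 were lower than in non-responders. Rpf2, the partner of Rrs1, had 30.5 ± 4.08 CPM in responders and 44.9 ± 12.3 in non-responders (log2 fold change -0.56 ± 0.15, edgeR adjusted p = 0.037), and the export adaptor Nmd3 had 52.6 ± 7.47 and 77.2 ± 14.1 (log2 fold change -0.55 ± 0.13, edgeR adjusted p = 0.0186). Nle1, a pre-60S factor, was lower as well (log2 fold change -0.51 ± 0.13, edgeR adjusted p = 0.0302).

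Of 35 further processome genes 4 were lower than in non-responders. Imp3, a protein of the U3 snoRNP, had 89.8 ± 11.6 CPM in non-responders and 65.2 ± 2.40 in responders (log2 fold change -0.46 ± 0.09, edgeR adjusted p = 0.0114). Utp11 was lower too (log2 fold change -0.40 ± 0.10, edgeR adjusted p = 0.0271). Of 7 late small subunit factors tested 3 were lower, led by the rRNA dimethylase Dimt1 (log2 fold change -0.50 ± 0.14, edgeR adjusted p = 0.0349). Of 16 exosome and rRNA end processing genes 2 were lower, Exosc5 (log2 fold change -0.52 ± 0.15, edgeR adjusted p = 0.0423) and Exosc1 (log2 fold change -0.36 ± 0.09, edgeR adjusted p = 0.0278). Among 13 further genes of RNA polymerase I and ribosomal DNA transcription, Taf1b, part of the promoter selectivity factor, was lower (log2 fold change -0.40 ± 0.11, edgeR adjusted p = 0.038). Ttf1, the transcription termination factor of RNA polymerase I, was the 1 gene of the 116 that was higher, with 41.2 ± 1.52 CPM in responders and 28.6 ± 4.48 in non-responders (log2 fold change 0.52 ± 0.09, edgeR adjusted p = 0.00691; against control IgG, log2 fold change 0.48 ± 0.08, edgeR adjusted p = 0.00265). Against control IgG tumors the lower calls were 10 for the large subunit, 5 for the processome, 1 for late small subunit assembly, 0 for the exosome (edgeR; 6 of 16 with an unadjusted p under 0.05), and 1 for RNA polymerase I.

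Myc, the transcription factor known to drive this program, ran from 95.7 to 146 CPM in responders, 113 to 155 in non-responders, and 152 to 196 in control IgG tumors. It was lower in responders than in control IgG tumors (log2 fold change -0.61 ± 0.12, edgeR adjusted p = 0.00563), while the difference from non-responders did not pass (log2 fold change -0.26 ± 0.13, edgeR adjusted p = 0.202). Non-responders also ran lower than control IgG tumors, with ranges that met only from 152 to 155 CPM, though 0 genes of the network were called there. The median of the 47 genes in that comparison was 0.02. The part of Myc in their levels was not tested. Of the 9 genes tested of the MYC network, 2, the antagonist Mxd1 and the paralog Mycl, were higher in responders than in non-responders. Mycl and Mxd4 were higher than in control IgG tumors. The 18 cell cycle genes held 0 calls in both comparisons (edgeR; 2 of 18 with an unadjusted p under 0.05 in each). Mki67, the proliferation marker Ki-67, had 260.5 ± 15.6 CPM in responders and 212 ± 80.2 in non-responders (log2 fold change 0.30 ± 0.23, edgeR adjusted p = 0.424).

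Markers of other cell types moved with the same groups. Of 10 T cell markers 9 were higher in responders than in non-responders and 10 than in control IgG tumors, where 5.08% and 7.88% of all genes were called higher. Their summed level was 63.5 to 116 CPM in responders, 35.8 to 43.9 in non-responders, and 28.7 to 58.6 in control IgG tumors. Of 8 B and plasma cell markers tested 4 were higher than in non-responders and 6 than in control IgG tumors, with sums of 55.2 to 100.2 CPM in responders, 21.8 to 33.3 in non-responders, and 21.8 to 32.4 in control IgG tumors. No marker of these lists was at 0 in every tumor. Responder 24L, lowest for the 47 genes, had the highest T cell, B cell, and fibroblast sums of the 14 tumors. Macrophage markers summed to 4177 to 4911 CPM in responders, 3549 to 5064 in non-responders, and 3369 to 4077 in control IgG tumors (1 of 10 higher in each comparison). Fibroblast markers summed to 2945 to 4938 CPM in responders, 2385 to 4441 in non-responders, and 2468 to 3166 in control IgG tumors. They had 1 higher gene against non-responders (3 higher and 1 lower against control IgG), endothelium 0 (edgeR; 3 of 10 with an unadjusted p under 0.05, and 2 higher against control IgG), and neutrophils 1 of 8 higher (1 higher and 1 lower). Skin epidermis and skeletal muscle had 0 calls in both (edgeR; 0 of 10 with an unadjusted p under 0.05 in each), and colon epithelium 0 against non-responders and 1 lower against control IgG. The part of the cell makeup of the tumors in the levels of the 47 genes was not tested.

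Some of the 47 genes overlap other transcripts. In the annotation, 7 of the 47 (14.9%) hold snoRNA genes inside their bounds, 21 in all, against 256 of the 16287 genes tested (1.57%). All 21 snoRNAs were listed at 0 in every tumor, so their levels are not reported by these libraries. Of the 7 hosts, 3 were lower in responders than in non-responders (Nop56, Nop58, and Wdr43). The median log2 fold change of the 7 was -0.31, beside -0.14 for the 249 other hosts tested. Exons on the opposite strand overlap 16 of the 47, among them Nop56 (Idh3b), Wdr43 (CT010429.2), and Wdr12 (Carf). The study's methods name default settings of RSEM, which do not use strand, so for these genes reads of both strands cannot be told apart.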

How the data were processed

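RNA-seq was run on 14 CT26 tumors (5 control IgG, 5 responder, 4 non-responder; 11 mice). Per the labels and the study's methods, RNA was extracted with a Qiagen AllPrep kit, mRNA was selected with oligo(dT), and the submitters' processing notes name STAR, RSEM, and mm10 (the same coordinates as GRCm38). The authors deposited 1 table per tumor with RSEM expected counts, TPM, and FPKM per Ensembl gene. Deposited expected counts, which need not be whole, were rounded before testing, and CPM was computed from them with TMM factors. The TPM values are as the authors deposited them, relative to gene length and to the sum of all transcripts. The deposited FPKM was not used. Poly(A) selection and gene length trends can shift values between libraries. The study's methods name default settings of STAR and RSEM for its cell line libraries and refer the tumor sequencing to the same account. The RSEM default does not use strand.

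Gene IDs were matched to symbols of GENCODE for GRCm38 (53620 with a symbol, 47 of 47 genes found, 1 gene of the other lists not matched). The main test was edgeR (4.0.16, R 4.3.3) quasi-likelihood on all 14 tumors with group as the only term, after filterByExpr (minimum count 10), with Benjamini-Hochberg adjustment over 16287 genes and a threshold of 0.05. The standard error is the log2 fold change divided by the root of F, and log2 CPM used a prior count of 2. Alternatives used DESeq2 1.42.0 and limma 3.58.1, other normalization factors, other filters, a gene length offset (loess span 0.5), log2(TPM + 1) and log2(TPM + 0.1), 1 tumor per mouse, and leaving out each tumor. The scripts were tested on simulated data. Totals of 33237744 to 48481461 counts put a count of 3 at no more than 9.03e-06% of a library, for counting error only. No pair of tumors agreed within sampling noise (lowest chi-square per gene 19.8). Tumors of 1 mouse were treated as separate samples, with 1 tumor per mouse as an alternative, and p-values measure the spread between tumors of 1 line. Full values are given for genes called in any comparison, for the most highly expressed and the smallest-p gene of each role, and for the longest and the shortest gene. The genes and lists were chosen with earlier results of these data known. Promoter sequences are RefSeq's for GRCm38.p6, and 5 of the 47 genes (Fbl, Rrs1, Bop1, Npm1, and Rrp12) had no entry there.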

Additional observations from a re-analysis of the deposited data

Results flagged for a closer look

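Of 54 group sets of values checked, 1 was marked as holding a tumor far from the others of its group. It was Utp20 in the control IgG tumors, where tumor 14R had 71.0 CPM and the other 4 had 99.4 to 108. On the log2 scale this was a gap of 0.803 of the range of the group. Chance alone marks about 1 in 20 such sets. The check did not mark non-responder 33R, so an unmarked set is not evidence that its tumors were alike. Tumor 33R had 43.1 CPM of Utp20, where the other non-responders had 97.3 to 122. It had 80.3 CPM of Nop10, where they had 36.5 to 52.4. Chi-square per gene was 124 to 181 between 33R and each other non-responder, against 30.4 to 34.9 among those others.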

How the results depend on the processing

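The median log2 fold change of the 47 genes kept its sign in all alternatives on counts, and with each tumor left out, for responders against non-responders (-0.21 to -0.11 with 1 tumor left out) and against control IgG tumors (-0.18 to -0.10). For non-responders against control IgG tumors it ran from -0.01 to 0.04 with 1 tumor left out. On log2(TPM + 1) and log2(TPM + 0.1) the medians moved to 0.0714 and 0.0778 against non-responders, to -0.0159 and -0.0161 against control IgG tumors, and to -0.0965 and -0.0992 for non-responders against control IgG. On these TPM scales the median of all genes moved as well.

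The number of the 47 genes called against non-responders (10) was 17 by limma-voom with mouse as a random effect (estimated correlation between tumors of a mouse -0.282), 2 with 1 tumor per mouse, 4 with no filter on low counts, 2 with only the groups compared, 2 with log2(TPM + 1), 2 with log2(TPM + 0.1), and 3 with a length offset without 33R, and ran from 3 to 12 with 1 tumor left out (3 without 24L, 30R, or 32R, and 4 without 33R). It was 15 by DESeq2, 8 by limma-voom, and 7 with a length offset. Of all genes tested, 16.2%, 9.15%, and 9.3% were called in these fits, in either direction, against 9.9% in the main fit. The share was 18.3% with mouse as a random effect and 3.19% with 1 tumor per mouse. The estimated correlation rests on mice 14, 30, and 33 alone. A negative value makes the errors between groups smaller, so the fit with mouse as a random effect is not the more cautious one. It was 4.05% with no filter and 4.34% with only the groups compared. On the 2 TPM scales it was 13.3% and 12.9%, and with a length offset without 33R 4.44%. Leaving out 29L or 33L, where 12 of the 47 passed, gave 12% and 10.7%. The number called against control IgG tumors (7) was 11 by DESeq2, 11 by limma-voom with mouse as a random effect, 4 with log2(TPM + 0.1), and 11 with a length offset without 33R. In these fits 18.5%, 18.3%, 10.6%, and 19.3% of all genes were called, against 13.2% in the main fit. With 1 tumor left out the number ran from 4 (without 20R or 30R) to 13 (without 33R), where 7.34%, 8.58%, and 20.5% of all genes were called. No gene of the 47 was called between non-responders and control IgG tumors under any alternative or with any tumor left out. Leaving out tumors or groups leaves fewer samples in the fit, and the cause of the other changes was not tested.

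Over all 47 genes, signs against non-responders turned in 7 with a length offset, 7 without 33R, 8 with both, and 20 on log2(TPM + 1), and against control IgG tumors in 5, 0, 5, and 12, none of them a called gene. Values for the genes given in full follow. Against non-responders, Utp20 was -0.0764 with 1 tumor per mouse, -0.0429 with a length offset, and -0.182 with a length offset without 33R, and ran from -0.0761 (without 33R) to 0.293 with 1 tumor left out, while Gar1 ran from -0.00561 (without 33R) to 0.199. On log2(TPM + 1) and log2(TPM + 0.1), Polr1c was 0.0184 and 0.0186, Npm1 0.0372 on both, Nob1 0.0427 and 0.0433, and Ebna1bp2 0.0696 and 0.0701. Against control IgG tumors, Gar1 was 0.0614 with a length offset, 0.0853 and 0.0856 on the TPM scales, and 0.0525 with a length offset without 33R. Utp20 was -0.0374 with a length offset and -0.0402 with a length offset without 33R, and Nob1 was 0.0357 and 0.0361 on the TPM scales.

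No paired analysis was possible because no mouse had tumors in more than 1 group. Depth set no limit for these genes, since the lowest count of any of them was 965.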
